A study of Mus musculus with 18 samples.

Results

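The comparison set the libraries of regulatory T cells (Treg) labelled HDAC1 or HDAC2 deletion, called the HDAC pair, against those labelled Mef2c or Mef2d deletion, called the MEF2 pair. It used 12 of the 18 libraries of the series, 3 for each of the 4 labels, which gave 6 libraries in each pair. All mice were males aged 6 to 8 weeks. Per the labels, they carried a floxed HDAC1, HDAC2, Mef2c or Mef2d gene together with Foxp3-YFP-cre, an allele that drives Cre recombinase and yellow fluorescent protein from the Foxp3 gene and so acts in cells that express Foxp3. The control mice, labelled WT, carried Foxp3-YFP-cre alone, and 1 further group carried a floxed Dyrk1 gene with the same cre. WT and Dyrk1 libraries took no part in any test below and appear only as levels, so no result rests on a control shared by the pairs. The strain background, litters and breeding of the mice are not given in the sources used here.

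HDAC1 and HDAC2 are class I histone deacetylases, closely related enzymes that remove acetyl groups from histones and work inside the SIN3, NuRD and CoREST corepressor complexes. MEF2C and MEF2D are MADS-box transcription factors, which bind A/T-rich sites and switch between activation and repression depending on whether they hold acetyltransferases or class IIa histone deacetylases. Treg are CD4+ T cells that restrain other immune cells, and the transcription factor Foxp3 maintains their identity.

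After CD4 column enrichment, cells were sorted by yellow fluorescence, and RNA was sequenced as paired reads. Values are FPKM (fragments scaled by gene length and library depth), the unit read from the values themselves. The depth recovered from their step sizes was 18.22 to 24.06 M reads in the HDAC pair and 15.87 to 22.52 M reads in the MEF2 pair. Foxp3 was read at 82.5 to 115 FPKM in the HDAC pair and at 95.3 to 118 FPKM in the MEF2 pair. The lowest correlation between any pair of the 12 libraries was a Pearson r of 0.9726 across genes on the log2 scale, and no columns were identical. In bulk RNA, fewer cells of a type and less RNA per cell cannot be told apart. The p-values measure the spread between these libraries, which the series text calls independent biological replicates.

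The targeted genes were read first, since they check the labels. Hdac1 was read at 27.8, 36.5 and 31.6 FPKM in the libraries labelled HDAC1 and at 110, 104 and 108 FPKM in those labelled HDAC2, against 116, 110 and 111 FPKM in those labelled Mef2c and 117, 114 and 122 FPKM in those labelled Mef2d. Only the HDAC1 label was low: Hdac1 differed between the libraries labelled HDAC1 and those labelled Mef2c by -1.79 on the log2 scale (adjusted p = 1.32e-07), but between those labelled HDAC2 and Mef2c by -0.07 (adjusted p = 0.674). The other targeted genes showed no such drop under their own labels. Hdac2 averaged 27.9 FPKM under the HDAC2 label, against 29.7 under HDAC1, 27.1 under Mef2c and 26.8 under Mef2d. Mef2c averaged 1.27 FPKM under the Mef2c label, against 1.12 under HDAC1, 1.33 under HDAC2 and 1.57 under Mef2d. Mef2d averaged 53.4 FPKM under the Mef2d label, against 47.1 under HDAC1, 49.9 under HDAC2 and 48.4 under Mef2c. The contrast of the pairs averages each targeted label with its partner. Hdac2 averaged 28.8 ± 1.69 FPKM in the HDAC pair and 27.0 ± 0.784 FPKM in the MEF2 pair (SD, n = 6 each), with an adjusted p of 0.191 by limma. Mef2c averaged 1.23 ± 0.626 FPKM in the HDAC pair and 1.42 ± 0.802 FPKM in the MEF2 pair, with an adjusted p of 0.845. Mef2d averaged 48.5 ± 3.17 FPKM in the HDAC pair and 50.9 ± 2.80 FPKM in the MEF2 pair, with an adjusted p of 0.346. A value per whole gene does not show a deletion of single exons, and exons were not read separately here. Mef2a, the other MEF2 factor widely expressed in T cells, averaged 14.2 FPKM in the HDAC pair and 14.3 FPKM in the MEF2 pair. Rcor1, the CoREST scaffold that the growth protocol names as knocked out although no sample label carries it, averaged 19 FPKM in the HDAC pair and 17.7 FPKM in the MEF2 pair (adjusted p = 0.102). The groups are therefore called by their labels throughout.

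Treg of the HDAC pair and of the MEF2 pair differed most in a small number of genes that were nearly on in one pair and nearly off in the other. A cluster of antiviral TRIM genes with the interferon-inducible GTPase gene Gvin1, the interferon-induced Oasl2 and the Treg surface gene Lrrc32 were higher in the HDAC pair. Pstpip2, Orm2, Inppl1, Il10ra and Il18r1 were lower in the HDAC pair. So were 6 of 12 mitochondrially encoded subunits of the respiratory chain, beside 4.31% of all genes tested. Processed pseudogenes with near-identical ribosomal protein relatives, such as Gm8730 and Rps13-ps1, were also far lower in the HDAC pair. Of the markers of other cells, 7 of 8 for plasma cells, 5 of 5 for erythroid cells and platelets and 6 of 12 for CD8 T and NK cells were higher in the HDAC pair. Over all genes tested, 6.25% were higher. On the lists of mitosis, NF-kB and NFAT feedback, and histone methyltransferases and remodellers, 0 genes were called by limma, beside 10.6% of all genes tested.

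Of 12037 genes tested (1 FPKM or more in at least 3 of the 12 libraries), 1271 were called, or 10.6%, with 752 higher (6.25%) and 519 lower (4.31%) in the HDAC pair. A call required an adjusted p under 0.05 from limma on log2(FPKM + 1), with Benjamini-Hochberg adjustment over all genes tested, and a difference of the same sign for all 4 combinations of an HDAC label with a MEF2 label. The p alone was met by 1460 genes (12.1%), and 189 of these (1.57% of genes tested) were dropped because the labels did not share a sign. Xaf1 and Ifi44, interferon-stimulated genes chosen here as examples after their values were seen, were dropped in this way. Xaf1 was read at 13.8 to 18.1 FPKM in the HDAC pair, against 49.1, 51.6 and 52.1 FPKM in the libraries labelled Mef2c and 16.3, 12.5 and 18.1 FPKM in those labelled Mef2d. Ifi44 was read at 0.743 to 1.70 FPKM in the HDAC pair, against 6.12, 4.50 and 4.67 FPKM in the libraries labelled Mef2c and 1.17, 0.634 and 1.23 FPKM in those labelled Mef2d. In a stricter count, 235 genes (1.95%) passed in each of the 4 label combinations separately, 151 higher (1.25%) and 84 lower (0.698%) in the HDAC pair. For 572 called genes (4.75% of those tested) no library of one pair reached the range of the other. With 4 labels set 2 against 2, permuting whole labels could not give a p below 0.333, so the test rests on the spread between libraries within labels and not on a sample of deletions.

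Most differences were small. The median absolute log2 difference of a called gene was 0.44, with quartiles of 0.26 and 0.86, and 711 of the called genes lay under 0.5. A difference of at least 1 was reached by 280 called genes, 218 higher and 62 lower in the HDAC pair. Of 388 immunoglobulin and T cell receptor segments tested, 152 were higher and 16 lower, and without them 600 genes were higher and 503 lower. Removal of trends with gene length and GC content turned the balance, with 681 genes higher and 855 lower. A fit with the label as a random block called 498 genes, and a filter of 5 FPKM in 6 libraries, which tests fewer genes, left 740. Labels within a pair differed as well. The HDAC1 and HDAC2 labels differed from each other in 358 genes (2.97%), and the Mef2c and Mef2d labels in 444 genes (3.69%). With the replicate number within a pair as a random block, an alternative added after the data were seen, these counts were 592 and 584, and the pairs differed in 1091 genes. The HDAC1 against HDAC2 count fell as low as 60 genes when 1 library, replicate 3 of the HDAC1 label, was left out, and to 77 without replicate 1 of the HDAC1 label, 70 without replicate 1 of the HDAC2 label and 99 without replicate 3 of the HDAC2 label. The Mef2c against Mef2d count fell to 290 without replicate 2 of the Mef2c label, to 295 without replicate 2 of the Mef2d label and to 289 without replicate 3 of the Mef2d label. Between the pairs, the 4 label combinations gave 1379 genes (11.5%) for HDAC1 against Mef2c, 1031 (8.57%) for HDAC1 against Mef2d, 917 (7.62%) for HDAC2 against Mef2c and 596 (4.95%) for HDAC2 against Mef2d.

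**Figure D1:**
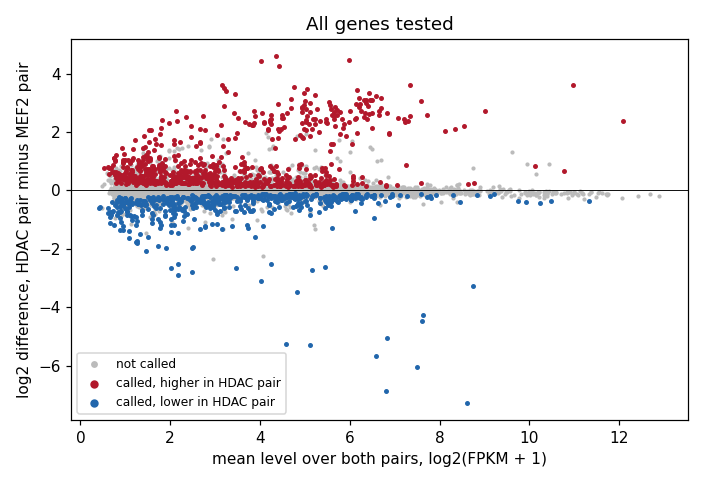
Each point is a gene tested. The x axis is the mean level over both pairs as log2(FPKM + 1), the y axis the log2 difference of the HDAC pair minus the MEF2 pair, and coloured points are called genes, 752 above and 519 below 0.

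The 3 genes of largest log2 difference under the naming rule stood together on chromosome 7. Trim12a, Trim5 and Trim30d belong to a family of tripartite-motif ubiquitin ligases whose primate TRIM5 relative restricts retroviruses, and Gvin1 encodes a very large interferon-inducible GTPase. Their start regions are shown because paralogues side by side in this cluster behaved differently and their sequences are close to identical. Each line gives 250 bases before to 50 bases after a RefSeq start on GRCm38.p6, read on the minus strand of chromosome 7 and written 5′ to 3′, with the match to GAAANNGAAA (here on its reverse strand) in capitals. The window of Trim5 lies at chr7:104288057-104288356, that of Trim12a at chr7:104315446-104315745, that of Trim12c at chr7:104353300-104353599 and that of Trim30d at chr7:104507800-104508099.
Trim5: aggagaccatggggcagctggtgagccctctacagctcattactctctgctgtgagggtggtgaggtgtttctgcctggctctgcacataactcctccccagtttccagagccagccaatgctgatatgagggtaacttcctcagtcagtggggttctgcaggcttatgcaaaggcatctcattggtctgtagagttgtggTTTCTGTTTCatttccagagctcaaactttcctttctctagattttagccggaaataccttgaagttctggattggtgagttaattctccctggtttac
Trim12a: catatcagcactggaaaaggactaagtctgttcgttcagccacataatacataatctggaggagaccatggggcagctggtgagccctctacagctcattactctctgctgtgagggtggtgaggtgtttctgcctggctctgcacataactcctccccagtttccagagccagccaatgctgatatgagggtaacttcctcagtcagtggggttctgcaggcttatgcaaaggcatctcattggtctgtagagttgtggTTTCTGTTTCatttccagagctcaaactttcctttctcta
Trim12c: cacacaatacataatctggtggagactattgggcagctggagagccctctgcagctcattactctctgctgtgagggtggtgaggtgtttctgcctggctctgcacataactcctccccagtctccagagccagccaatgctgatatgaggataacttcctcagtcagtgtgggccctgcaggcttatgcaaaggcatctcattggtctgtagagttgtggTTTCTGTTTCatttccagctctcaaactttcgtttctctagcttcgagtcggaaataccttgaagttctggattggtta
Trim30d: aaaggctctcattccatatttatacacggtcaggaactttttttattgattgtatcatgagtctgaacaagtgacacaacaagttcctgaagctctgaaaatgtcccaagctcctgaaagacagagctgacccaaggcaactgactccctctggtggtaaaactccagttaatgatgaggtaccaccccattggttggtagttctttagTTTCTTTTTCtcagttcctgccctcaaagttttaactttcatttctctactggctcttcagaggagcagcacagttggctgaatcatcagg

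Aligned to each other, the windows of Trim5 and Trim12a were identical over 241 of 241 bases, and those of Trim12a and Trim12c over 247 of 260 bases. Trim5 and Trim30d shared 168 of 271 aligned bases (62.0%). GAAANNGAAA, searched on both strands, is a core of the element to which interferon-activated factors bind. It occurred in the windows of all 5 TRIM genes examined (these 4 and Trim30a) and in 9 of 14 matched genes of the type I interferon list. Among the 28 genes of largest difference it occurred in 3 of 18 matched, which were Trim5, Trim12a and Trim30d themselves. It occurred in 341 of 8775 matched genes tested (3.89%) and in 1131 of 32851 windows of the whole table (3.44%). A MEF2 site, searched by its name's consensus on both strands, occurred in 0 of the 18 and in 183 of the 32851 windows (0.557%). A match is a description of letters, not of binding.

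Trim12a was read at 31.0, 28.3 and 27.0 FPKM in the libraries labelled HDAC1 and at 30.7, 28.9 and 30.3 FPKM in those labelled HDAC2, against 0.013, 0 and 0.0673 FPKM in those labelled Mef2c and 0, 0 and 6.57 FPKM in those labelled Mef2d. Every HDAC library was high, 5 MEF2 libraries were at or near 0, and replicate 3 of the Mef2d label stood between at 22.4% of the mean of the HDAC pair. The difference was 4.42 on the log2 scale (SE 0.42, adjusted p = 5.13e-05). WT libraries lay with the HDAC pair, at 23.9, 24.7 and 22.3 FPKM. Trim5 was read at 13.2, 14.3 and 13 FPKM under the HDAC1 label and 18.6, 16.7 and 15.9 FPKM under the HDAC2 label, against 0.106, 0.0449 and 0.0412 FPKM under the Mef2c label and 0.0364, 0 and 3.28 FPKM under the Mef2d label. The same library stood between, at 21.4% of the mean of the HDAC pair, and the difference was 3.61 (SE 0.30, adjusted p = 1.99e-05). Trim30d was read at 14.2 to 16.9 FPKM in the HDAC pair, against 0.0191 to 0.243 FPKM in 5 libraries of the MEF2 pair and 3.72 FPKM in replicate 3 of the Mef2d label (log2 difference 3.51, SE 0.30, adjusted p = 2.46e-05). Gvin1, on the same chromosome, was read at 5.60 to 7.72 FPKM in the HDAC pair, against 0 to 0.0112 FPKM in 5 libraries of the MEF2 pair and 1.27 FPKM in replicate 3 of the Mef2d label (log2 difference 2.70, SE 0.18, adjusted p = 2.69e-06). In all 4 genes the pairs did not overlap, which the naming rule required, so it adds no support. Each of the 12 fits that left out 1 library kept the call for all 4.

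The neighbouring paralogues, named after their values were seen, were mixed. Trim34a (log2 difference 0.87) and Trim21 (0.26) were called higher in the HDAC pair, Trim34b (-0.75) was called lower, and Trim30c (0.11) and Trim3 (0.19) were not called. Trim12c was read at 25.5 to 30.2 FPKM in the HDAC pair and at 29.97 to 34.4 FPKM in the MEF2 pair, a log2 difference of -0.19 (adjusted p = 0.0261) that was lost in 7 of the 12 fits leaving out 1 library. Trim30a, described in mouse as a brake on NF-kB signalling, was read at 37.2 to 44.2 FPKM in the HDAC pair and at 32.9 to 39.9 FPKM in the MEF2 pair (log2 difference 0.16, adjusted p = 0.107). Because Trim5, Trim12a and Trim12c share long identical stretches, as do Trim30a and Trim30d, the counting could assign reads of one to another, and single values of these genes are uncertain. Trim68, also on chromosome 7 and named after its values were seen, ran the other way, at 4.49 to 5.86 FPKM in the HDAC pair and 7.93 to 10.6 FPKM in the MEF2 pair (log2 difference -0.75, adjusted p = 5.6e-05).

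**Figure D2:**
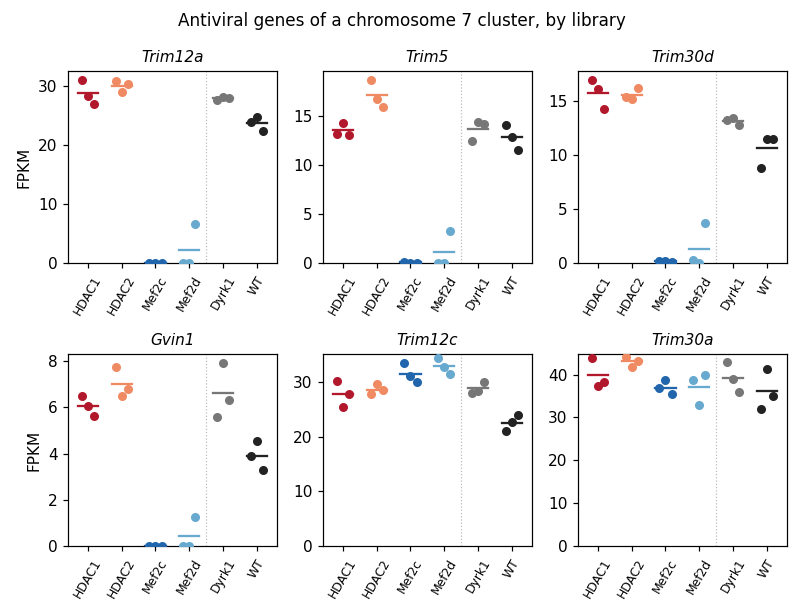
FPKM of 6 genes of a chromosome 7 cluster in each library. Points are libraries and bars are label means, with the HDAC1, HDAC2, Mef2c and Mef2d labels left of the dotted line and Dyrk1 and WT right of it; Trim12a, Trim5, Trim30d and Gvin1 are near 0 in 5 of 6 MEF2 libraries, while Trim12c and Trim30a are present in all.

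Oasl2, an interferon-induced member of the oligoadenylate synthetase family, was read at 4.95 to 10.2 FPKM in the HDAC pair, with a median of 5.77, and at 0.262 to 0.605 FPKM in the MEF2 pair, with a median of 0.403 (log2 difference 2.39, SE 0.14, adjusted p = 1.26e-06). Rplp0, a protein of the ribosomal stalk that lies within 1 Mb of Oasl2 on chromosome 5, averaged 2134 ± 110 FPKM in the HDAC pair and 1353 ± 79.9 FPKM in the MEF2 pair (SD, n = 6 each; log2 difference 0.66, adjusted p = 2.18e-05). Rplp0 was the only gene called on the list of 38 cytosolic ribosomal protein genes tested, and the median of that list was -0.08. The level of Rplp0 is uncertain, because near-identical pseudogene copies such as Gm8730 ran the opposite way. Unc5cl, a death-domain protein of the UNC5 family, was read at 6.77 to 10.8 FPKM in the HDAC pair and 1.41 to 2.68 FPKM in the MEF2 pair (log2 difference 1.64, adjusted p = 4.59e-08). Art2b, an ADP-ribosyltransferase anchored on the T cell surface, was read at 69.8 to 112 FPKM in the HDAC pair and 18.3 to 30.6 FPKM in the MEF2 pair (log2 difference 1.85, adjusted p = 3.97e-06). Hist1h4i, a replication-dependent histone H4 gene named after its values were seen, averaged 7.67 ± 1.71 FPKM in the HDAC pair and 2.97 ± 0.514 FPKM in the MEF2 pair (log2 difference 1.11, adjusted p = 3.34e-05).

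Under the naming rule, which leaves out pseudogenes, the genes lower in the HDAC pair were led by Pstpip2 and Orm2. Pstpip2 encodes an F-BAR adaptor of the membrane and cytoskeleton whose loss causes autoinflammation in mice. It was read at 3.06, 2.26 and 2.32 FPKM in the libraries labelled HDAC1 and 1.27, 1.72 and 1.64 FPKM in those labelled HDAC2, against 16.4, 16.8 and 16.1 FPKM in those labelled Mef2c and 19.4, 20.9 and 19.4 FPKM in those labelled Mef2d. The pairs were far apart (log2 difference -2.67, SE 0.07, adjusted p = 6.89e-10), and WT averaged 2.22 FPKM. Orm2, an orosomucoid known as an acute-phase plasma protein of the liver, was read at 3.48 to 5.73 FPKM in the HDAC pair and 27.5 to 39.5 FPKM in the MEF2 pair (log2 difference -2.53, SE 0.10, adjusted p = 3.33e-08). Inppl1, the lipid phosphatase SHIP2, was read at 5.92 to 8.50 FPKM in the HDAC pair and 13.9 to 18.6 FPKM in the MEF2 pair (log2 difference -1.17, adjusted p = 1.18e-06). Rab4a, a GTPase of endosome recycling, averaged 2.65 ± 0.387 FPKM in the HDAC pair and 8.07 ± 0.821 FPKM in the MEF2 pair. Prelid2, of the PRELI domain family, averaged 6.87 ± 1.88 FPKM in the HDAC pair and 17.8 ± 1.89 FPKM in the MEF2 pair. Kcnh2, a voltage-gated potassium channel, was lower in the HDAC pair as well, at 4.15 to 5.64 FPKM against 6.45 to 12.4 FPKM in the MEF2 pair. Tmie, a membrane protein needed for hearing, was read at 3.04 to 4.50 FPKM in the HDAC pair and 7.08 to 15.2 FPKM in the MEF2 pair. Fcrl1 and Fam129c, genes known from B cells, and Utf1 were called lower but failed at least 1 of the 4 label combinations.

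Processed pseudogenes, intronless copies of messenger RNAs, lay at the extreme lower end, outside the naming rule; all of those described here were chosen after their values were seen. Of 36 called genes lower in the HDAC pair by 1 or more on the log2 scale, with 5 FPKM or more in the higher pair and receptor segments left out, 23 (63.9%) were annotated as pseudogenes, against 6 of 36 (16.7%) of those higher in it and 142 of all 8274 genes tested of that level (1.72%). For 27 of these 29 pseudogenes, a coding transcript shared at least 50 stretches of 25 bases, with a median identity of 98.9% over the aligned part, and for 15 of the 27 it belonged to a cytosolic ribosomal protein gene.

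Gm8730 was 98.7% identical to Rplp0. It was read at 5.50, 4.55 and 3.84 FPKM in the libraries labelled HDAC1 and 3.10, 3.78 and 4.02 FPKM in those labelled HDAC2, against 712, 794 and 866 FPKM in those labelled Mef2c and 769, 756 and 795 FPKM in those labelled Mef2d (log2 difference -7.27, SE 0.08, adjusted p = 4.79e-13). Rplp0 itself was higher in the HDAC pair, and the sum of Rplp0 and Gm8730 averaged 2138 ± 111 FPKM in the HDAC pair and 2135 ± 121 FPKM in the MEF2 pair (SD, n = 6 each). Each value is scaled by the length of its own gene, so such a sum is not a total of reads. Rps13-ps1, 99.6% identical to Rps13, averaged 4.396 FPKM in the HDAC pair and 355 FPKM in the MEF2 pair, while Rps13 averaged 1429 FPKM in the HDAC pair and 801 FPKM in the MEF2 pair. Their sum averaged 1433 ± 151 FPKM in the HDAC pair and 1156 ± 57.8 FPKM in the MEF2 pair. Sums of other copies with their coding relatives were mixed. In the HDAC and MEF2 pairs they averaged 1307 ± 162 and 1361 ± 83.5 FPKM for Rpl34 with Rpl34-ps1. For Tma7 with Tma7-ps they averaged 230 ± 22.2 and 412 ± 89.4 FPKM. At Rps3a3 and Gm12191, 1 MEF2 label held nearly all of the signal. Rps3a3, 98.9% identical to Rps3a1, averaged 1.49 FPKM in the HDAC pair, against 1.96 FPKM under the Mef2c label and 790 FPKM under the Mef2d label, and Rps3a1 averaged 1675 FPKM in the HDAC pair, against 1757 FPKM under the Mef2c label and 457 FPKM under the Mef2d label. Gm12191, 99.7% identical to Rpl30, averaged 19.8 FPKM in the HDAC pair, against 1660 FPKM under the Mef2c label and 24.1 FPKM under the Mef2d label, and Rpl30 averaged 505 FPKM in the HDAC pair, against 160.2 FPKM under the Mef2c label and 541.5 FPKM under the Mef2d label. Between such copies reads can be assigned to either, so the levels of these pseudogenes and of their coding relatives are uncertain singly, and which copy the reads came from was not tested.

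Gm9625, a further copy of Rplp0 with 97.4% identity, averaged 0.893 ± 0.214 FPKM in the HDAC pair and 220 ± 13.9 FPKM in the MEF2 pair (SD, n = 6 each), and 1.28 FPKM in WT, a log2 difference of -6.87. With Gm9625 and Gm14165, the remaining called copies of Rplp0, added to Rplp0 and Gm8730, the sum of the 4 genes averaged 2139 ± 111 FPKM in the HDAC pair and 2361 ± 133 FPKM in the MEF2 pair. Gm4956, a transcribed pseudogene also chosen after its values were seen, was read at 90.1 to 134 FPKM in the HDAC pair. In the MEF2 pair it was read at 0.338, 0.858 and 1.18 FPKM under the Mef2c label and at 1.27, 8.32 and 105 FPKM under the Mef2d label. Replicate 3 of the Mef2d label thus lay within the range of the HDAC pair at this gene, as it lay between the pairs at the TRIM cluster.

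Among cytokine receptors, Il10ra and Il18r1 were lower in the HDAC pair. Il10ra, the signalling chain of the IL-10 receptor through which Treg respond to IL-10, was read at 22.4, 24.5 and 21.9 FPKM in the libraries labelled HDAC1 and 22.6, 24.8 and 26.8 FPKM in those labelled HDAC2, against 41.0, 39.7 and 47.2 FPKM in those labelled Mef2c and 39.3, 44.1 and 50.6 FPKM in those labelled Mef2d. The pairs did not overlap, as the naming rule required (log2 difference -0.84, SE 0.07, adjusted p = 1.88e-05). Il18r1, the IL-18 receptor chain, was read at 24.8 to 35.2 FPKM in the HDAC pair and 43.6 to 53.2 FPKM in the MEF2 pair (log2 difference -0.75, adjusted p = 4.34e-05). WT averaged 24.7 FPKM for Il10ra and 20.7 FPKM for Il18r1, on the side of the HDAC pair for both.

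Of 20 Treg identity genes, 5 were higher in the HDAC pair, 1 was lower and 14 were not called, so 30% were called beside 10.6% of all genes tested, and the list's median log2 difference was -0.03, beside -0.0014 over all genes tested. Lrrc32 encodes GARP, which holds latent TGF-beta on the Treg surface. It was read at 54.6, 66.4 and 75.7 FPKM in the libraries labelled HDAC1 and 66.5, 61.3 and 69.5 FPKM in those labelled HDAC2, against 17.8, 16.1 and 19.1 FPKM in those labelled Mef2c and 26.8, 33.8 and 49.1 FPKM in those labelled Mef2d. The Mef2d libraries lay between the Mef2c libraries and the HDAC pair (log2 difference 1.35, SE 0.13, adjusted p = 5.18e-05). WT averaged 73.4 FPKM and Dyrk1 72.6 FPKM for Lrrc32, on the side of the HDAC pair, which averaged 65.7 FPKM. The pairs did not overlap, as the naming rule for the largest differences required. Nt5e, the CD73 ectoenzyme that makes adenosine, averaged 53 ± 5.41 FPKM in the HDAC pair and 33.7 ± 4.71 FPKM in the MEF2 pair (log2 difference 0.64, adjusted p = 9.88e-04). Socs2, a suppressor of cytokine signalling, averaged 17.5 ± 3.09 FPKM in the HDAC pair and 12 ± 1.28 FPKM in the MEF2 pair. Nrp1 (log2 difference 0.34) and Tgfb1 (0.16) were the other members that were higher, and Gpr83, a G protein-coupled receptor enriched in Treg, was lower (-0.41, adjusted p = 0.0106, lost without 1 of the 12 libraries). Foxp3 itself had a log2 difference of -0.21 (adjusted p = 0.0859), Il2ra of -0.03 and Ctla4 of -0.22 (adjusted p = 0.307).

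Of 26 effector Treg genes, 4 were higher and 3 lower in the HDAC pair (26.9% called, beside 10.6% of all genes), with a median log2 difference of 0.03. Ccr4, a chemokine receptor that guides Treg into skin and inflamed tissue, was read at 16.7 to 23.6 FPKM in the HDAC pair and 7.48 to 14.9 FPKM in the MEF2 pair (log2 difference 0.77, adjusted p = 3.09e-05). Gzmb, a cytotoxic protease, averaged 19 ± 6.07 FPKM in the HDAC pair and 10.9 ± 2.38 FPKM in the MEF2 pair (log2 difference 0.72, adjusted p = 0.0188), and the pairs overlapped. Havcr2, the inhibitory receptor TIM-3, was called with a log2 difference of 0.79, but it differed between the HDAC1 and HDAC2 labels as well (log2 0.92, adjusted p = 0.00447). Fgl2, a secreted suppressor, was higher (0.53), and Il1rl1 (-0.34), Pdcd1 (-0.26) and Batf (-0.19) were lower. Il10 (0.03), Prdm1 (0.03), Irf4 (0.17) and Klrg1 (0.40) were not called.

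On the lists of other T cell programmes, 26.7% of Th1, 28.6% of Th17, 37.5% of follicular T cell, 20% of Th2 and 12.5% of resting T cell genes tested were called, beside 10.6% of all genes, each from 4 calls or fewer. Of 15 Th1 genes, 3 were higher, Nkg7 and Il12rb1 among them, and Il18r1 was lower, with a median log2 difference of 0.21; the lineage factor Tbx21 had a log2 difference of 0.55 (adjusted p = 0.0759) and Ifng of 0.21 (adjusted p = 0.478). Of 7 Th17 genes tested, Tmem176a and Tmem176b, ion channel genes linked to RORgt, were higher. Of 8 follicular T cell genes tested, 3 were lower (Tox2, Sostdc1 and Cd200) and 0 higher by limma, with a median log2 difference of -0.16. At an unadjusted p under 0.05, 4 of the 8 passed, beside 24.5% of all genes tested. Tox2, a nuclear factor of the TOX family, averaged 5.66 ± 0.805 FPKM in the HDAC pair and 7.76 ± 0.671 FPKM in the MEF2 pair (log2 difference -0.40, adjusted p = 0.00356), and the call on Cd200 was lost in 11 of the 12 fits leaving out 1 library. Of 16 resting T cell genes, Igfbp4 and Klf3 were higher, and of 5 Th2 genes tested only Ccr4 was.

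**Figure D3:**
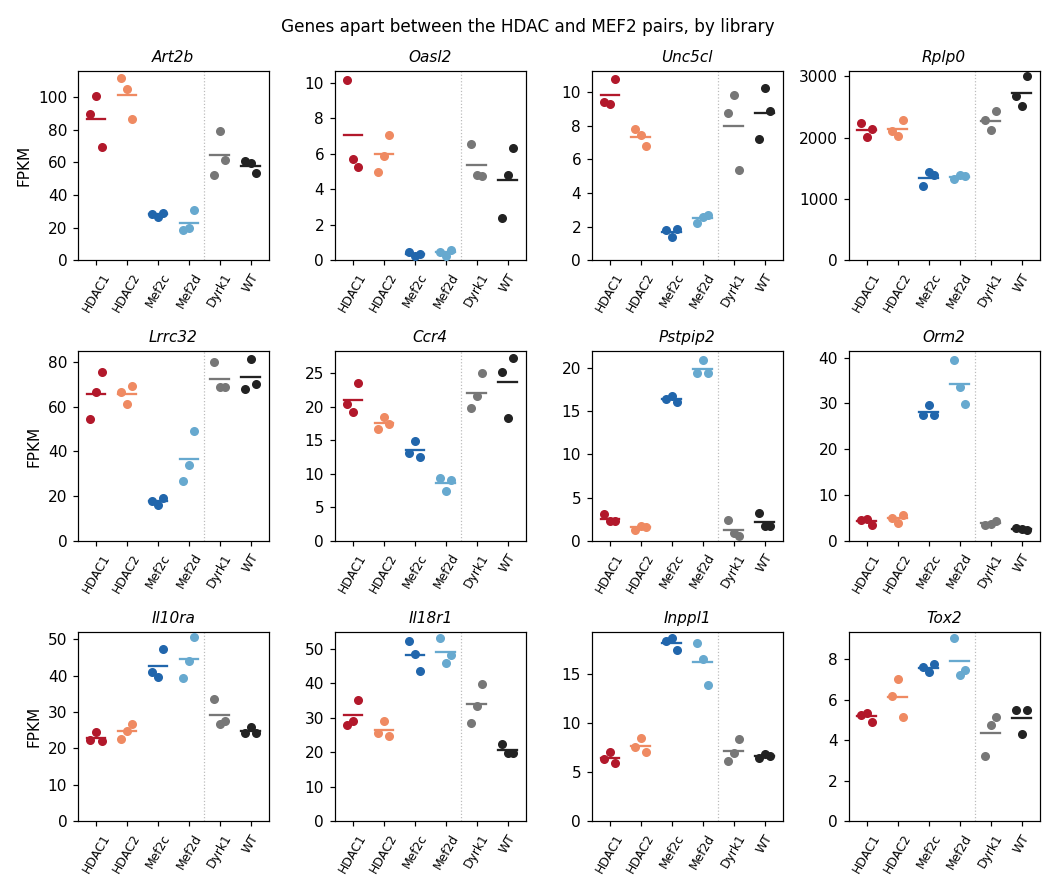
FPKM of 12 genes that separate the pairs, by library, with points for libraries and bars for label means. Labels run HDAC1, HDAC2, Mef2c and Mef2d, then Dyrk1 and WT right of the dotted line; Oasl2 is at 4.95 to 10.2 FPKM in the HDAC pair and 0.262 to 0.605 FPKM in the MEF2 pair.

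Genes for partners of the deleted proteins were called at shares near that of all genes (10.6%), with 12.9% for class I HDACs and corepressors and 13.3% for MEF2 factors and partners. Of 31 class I HDAC and corepressor genes, Mbd2, Mta3 and Gatad2a, members of the NuRD complex, were higher by 0.29, 0.16 and 0.15 on the log2 scale. Hdac1 was lower through its own label alone. The remaining NuRD genes of the list were not called, with log2 differences from -0.07 (Mbd3) to 0.13 (Chd4). Without the 3 libraries highest in B or plasma cell genes, 0 members of this list were called higher. Of 15 genes of MEF2 factors and partners tested, the kinase gene Sik3 (0.20) and the class IIa deacetylase gene Hdac5 (0.16) were higher. Both calls were unstable, with the Hdac5 call lost in each of the 12 fits that left out 1 library and the Sik3 call in 7. The other class IIa deacetylase genes, Hdac4 (-0.11), Hdac7 (-0.13) and Hdac9 (-0.16), were not called. Of the kinase genes, Sik1 (-0.03) was not called, and Camk4 (0.25) met the adjusted p but its labels did not share a sign. Of 23 histone methyltransferase and remodeller genes, 0 were called by limma.

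Few cell division genes were called. Of 25 DNA replication genes tested, 1 (Rfc3) was lower (4%), and of 21 mitosis genes 0 were called, beside 10.6% of all genes tested. Top2a, a topoisomerase of dividing cells, was read at 19.8 to 47.2 FPKM in the HDAC pair and 29.2 to 34.7 FPKM in the MEF2 pair, and its spread lay between the HDAC labels. Of 18 NFAT and NF-kB feedback genes 0 were called; Nfkbia averaged 230 ± 27.3 FPKM in the HDAC pair and 248 ± 41.6 FPKM in the MEF2 pair. Of 19 immediate early genes tested, only Ier2 was called, lower, and the call was lost in 8 of the 12 fits leaving out 1 library. At an unadjusted p under 0.05, 0 of the mitosis genes, 1 of the NFAT and NF-kB genes and 3 of the 23 methyltransferase and remodeller genes passed. Over all genes tested, 24.5% passed at that threshold.

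The interferon list did not move as a group. Of 20 type I interferon-stimulated genes, Oasl2, Oas2 and Oasl1 were called higher in the HDAC pair and 0 were called lower, with a median log2 difference of 0.07. The share called was 15%, beside 10.6% of all genes tested. Xaf1 (-0.79) and Ifi44 (-0.62) met the adjusted p but were dropped because the labels did not share a sign. Oasl2, Oas2 and Oasl1 are all oligoadenylate synthetase family genes on chromosome 5. Oas2 averaged 5.06 ± 0.927 FPKM in the HDAC pair and 2.98 ± 1.02 FPKM in the MEF2 pair, and Oasl1 averaged 3.96 ± 0.505 FPKM in the HDAC pair and 2.45 ± 0.694 FPKM in the MEF2 pair. Isg15 (log2 difference 0.15), Irf7 (0.03) and Ifit1 (-0.02) were not called. Of 13 MHC class I genes, 15.4% were called, beside 10.6% of all genes tested. The transactivator Nlrc5 was higher, at 68.6 to 88.0 FPKM in the HDAC pair and 43.6 to 62.4 FPKM in the MEF2 pair, and H2-T23 was lower.

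Of 12 mitochondrially encoded genes tested, 6 were lower in the HDAC pair and 0 higher, beside 4.31% lower among all genes, and the list's median log2 difference was -0.37. The other 6, mt-Co1, mt-Co2, mt-Nd3, mt-Nd4l, mt-Nd5 and mt-Cytb, were not called, with log2 differences of -0.18 to -0.53. mt-Co3, a subunit of cytochrome c oxidase, was read at 11.6 to 14.3 FPKM in the HDAC pair and 16.1 to 31.7 FPKM in the MEF2 pair (log2 difference -0.77, SE 0.12, adjusted p = 0.00188). Levels within the list were uneven. mt-Co2, mt-Co3, mt-Atp6, mt-Nd3 and mt-Nd4l averaged 3.15 to 17.9 FPKM in the HDAC pair, and the remaining members 740 to 5150 FPKM. The reason was not tested, and single values of the low members, mt-Co3 among them, are uncertain as transcript levels. mt-Nd4, a complex I subunit, averaged 740 ± 73.0 FPKM in the HDAC pair and 966 ± 119 FPKM in the MEF2 pair (log2 difference -0.38, adjusted p = 0.00779), with overlap of the pairs. mt-Nd6 had a log2 difference of -0.43 (adjusted p = 0.00829), and mt-Atp6 of -0.51, a call lost in 6 of the 12 fits leaving out 1 library. Of 34 nuclear oxidative phosphorylation genes, Sdhd was higher (0.24) and 0 were lower, with a median log2 difference of -0.04; the difference between the lists was not tested. WT averaged 17.0 FPKM for mt-Co3 and 832 FPKM for mt-Nd4, between the means of the pairs. Malat1, a nuclear RNA read here as a sign of RNA quality and lysis, had a log2 difference of 0.18 (adjusted p = 0.488). Whether RNA quality has a part in the mitochondrial result was not tested.

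Metabolic, stress and survival lists held 1 or 2 calls each, at 7.69 to 11.8% of the genes tested, beside 10.6% of all genes. Of 18 glycolysis genes, the glucose transporter Slc2a3 (-0.27) and the lactate dehydrogenase Ldhb (-0.35) were lower. Of 17 cholesterol synthesis genes, Sqle (-0.36) and Insig1 (-0.17) were lower. Of 17 p53 targets and CDK inhibitors tested, Ccng1 (-0.32) and Cdkn1b (-0.18) were lower, and of 13 BCL2 family genes the survival factor Bcl2l1 (-0.25) was. Atf5 (0.33) was the only call among 13 ATF4 targets tested, and Hspb1 (0.53) and Dnaja1 (-0.35) were the calls among 18 chaperones tested. With the replicate number within a pair as a random block, the adjusted p was 0.0548 for Hspb1, 0.0684 for Insig1, 0.0612 for Cd200, 0.0568 for Ier2 and 0.0642 for Hdac5, and these limma calls were lost. Among 18 integrins and chemokine receptors, 3 were higher, Itgav and Ccr4 among them, and Cxcr4, a receptor for bone marrow and tissue retention, was lower at 23.3 to 47.5 FPKM in the HDAC pair against 37.2 to 63.4 FPKM in the MEF2 pair (log2 difference -0.61, adjusted p = 0.0239).

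**Figure D4:**
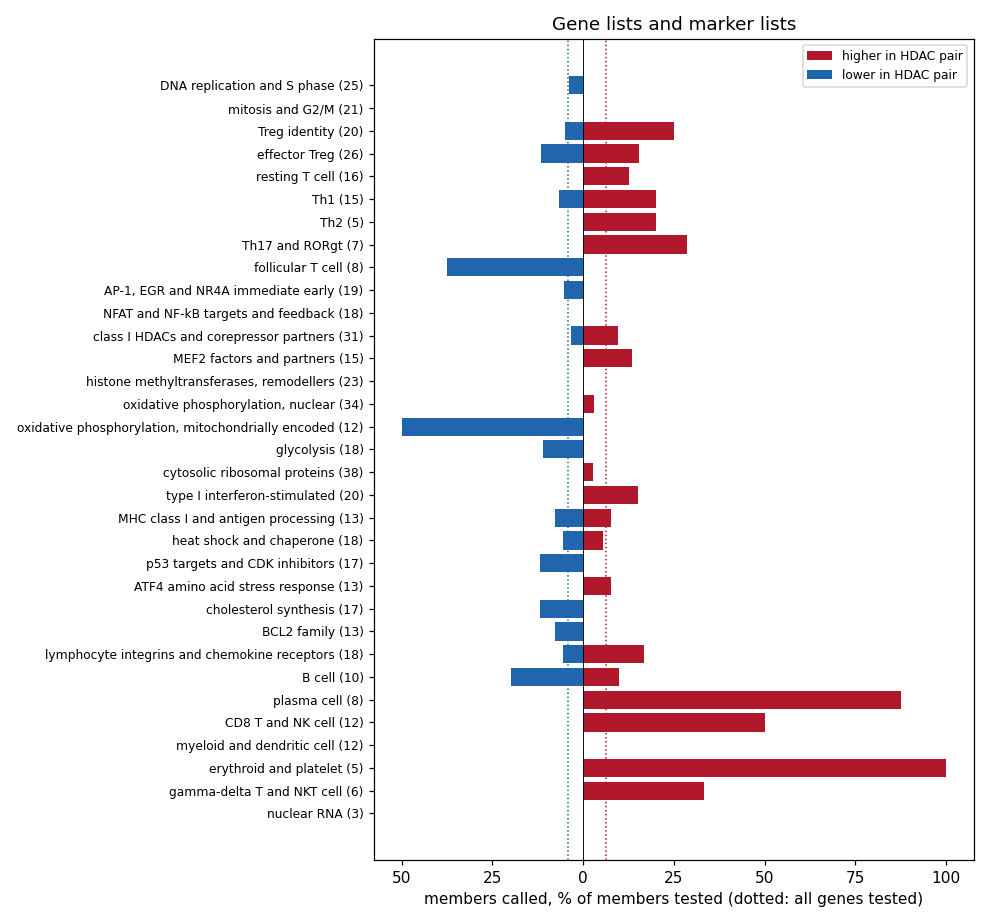
Share of tested members called higher in the HDAC pair (red, right) or lower (blue, left) for each gene list, with the number tested in brackets. Dotted lines mark the shares over all genes tested, 6.25% higher and 4.31% lower; plasma cell and erythroid markers are the longest bars to the right and mitochondrially encoded genes the longest to the left.

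Markers of several cell types other than Treg moved with the comparison. Over all genes tested, 6.25% were called higher in the HDAC pair and 4.31% lower, or 10.6% in all, for comparison with the marker counts. Of 8 plasma cell markers, 7 were higher in the HDAC pair, and their summed level was 2311 to 11988 FPKM in the HDAC pair, against 318 to 859 FPKM in the MEF2 pair and 678 to 1948 FPKM in WT. Jchain, which joins secreted antibody chains, was read at 437 to 1935 FPKM in the HDAC pair and 62.5 to 215 FPKM in the MEF2 pair (log2 difference 2.72, adjusted p = 8.44e-04). Igha averaged 3738 FPKM in the HDAC pair and 269 FPKM in the MEF2 pair, and Sdc1, the plasma cell surface proteoglycan, averaged 5.02 ± 2.89 FPKM in the HDAC pair and 1.44 ± 0.221 FPKM in the MEF2 pair. The B cell surface gene Ms4a1 went the other way and averaged 2.91 ± 1.35 FPKM in the HDAC pair and 8.81 ± 5.32 FPKM in the MEF2 pair, a call lost in 7 of the 12 fits that left out 1 library. Of 10 B cell markers tested, 2 were lower, Ms4a1 among them, and Igkc was higher.

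All 5 erythroid and platelet markers tested were higher in the HDAC pair, beside 6.25% of all genes tested. Their summed level was 43.7 to 305 FPKM in the HDAC pair, against 13.4 to 56.1 FPKM in the MEF2 pair and 26.1 to 391 FPKM in WT. Hbb-bs and Hbb-bt lie at -0.44 and -0.45 Mb from Trim5 in the chromosome 7 stretch described below. Within 2 Mb of Hbb-bt, 15 of 36 other genes tested were called, and the same share was called around Klrb1c. Whether position has a part in these marker calls was not tested. Of 12 CD8 T and NK cell markers tested, 6 were higher, with a summed level of 110 to 174 FPKM in the HDAC pair, 55.7 to 115 FPKM in the MEF2 pair and 78.2 to 127 FPKM in WT. Klrb1c, the NK1.1 receptor, was read at 3.21 to 18.6 FPKM in the HDAC pair and 0.474 to 1.01 FPKM in the MEF2 pair (log2 difference 2.21, adjusted p = 6.14e-05), and Klrc1, its neighbour that encodes NKG2A, at 2.96 to 14.3 FPKM in the HDAC pair and 0.317 to 1.34 FPKM in the MEF2 pair. The members that define CD8 T cells were not called, with Cd8a at 0.908 FPKM in the HDAC pair and 1.90 FPKM in the MEF2 pair (log2 difference -0.53) and Cd8b1 at 9.29 FPKM in the HDAC pair and 11.3 FPKM in the MEF2 pair (-0.23). Tyrobp, Eomes, Prf1 and Gzmk were not called. Nkg7 and Gzma are also expressed by effector T cells and lie in this list. Of 6 gamma-delta T and NKT cell markers tested, Sox13 and Tcrg-C2 were higher, and of 12 myeloid markers 0 were called, with summed levels of 111 to 502 FPKM in the HDAC pair and 89.2 to 494.3 FPKM in the MEF2 pair. None of the defining markers named here was at 0 in all libraries of a pair. The part of such cells in the T cell results was not tested. Without the 3 libraries highest in B or plasma cell genes (replicate 2 of the HDAC1 label, replicate 2 of the HDAC2 label and replicate 1 of the Mef2d label), an alternative added after the data were seen, 810 genes were called and 201 passed every label combination. The plasma cell list then had 8 higher, the CD8 T and NK cell list 3, the erythroid list 1, the gamma-delta list 0, the Treg identity list 4 and the mitochondrially encoded list 5 lower.

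Called genes were not spread evenly over the genome. With immunoglobulin and T cell receptor segments left out, 1103 of 11649 genes were called (9.47%), and the share per autosome or X chromosome ran between 3.49% on chromosome 10 and 16.5% on chromosome 18. Over 206 windows of 10 Mb with 20 or more genes, the median share was 7.88%, with quartiles of 4.04% and 13.7%. In 9 windows over 30% of the genes were called, 141 of 372 in all, against 953 of 11211 other genes with a position (8.5%). The densest was the first 10 Mb of chromosome 14, where 19 of 27 genes were called, followed by 20 to 30 Mb of chromosome 1 with 12 of 22 and 60 to 70 Mb of chromosome 4, which holds Orm2, with 9 of 23. Many of the called genes in the first 2 windows are predicted genes of multicopy families, for which reads can be shared between copies. Both 10 Mb windows between 90 and 110 Mb of chromosome 7, which hold Lrrc32 and the TRIM cluster, were among the 9, with 14 of 40 and 25 of 70 genes called.

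The named genes lay in these stretches unequally. Within 2 Mb on either side of Trim30d, 15 of 26 other genes tested were called, 9 higher and 6 lower in the HDAC pair. The share was 12 of 24 around Gvin1, 13 of 32 around Lrrc32, 15 of 36 around Klrb1c, 19 of 47 around Il10ra, 8 of 20 around Orm2 and 17 of 52 around Oasl2. Neighbours were called in both directions: around Oasl2, 6 were higher and 11 lower. It was 1 of 10 around Pstpip2, 3 of 54 around Rab4a and 2 of 33 around Hdac1. Xrn1 and Atr, an RNA exonuclease and a DNA damage kinase that lie side by side on chromosome 9 and were named after their values were seen, were both lower in the HDAC pair: Atr averaged 7.32 ± 0.363 FPKM in the HDAC pair and 12.8 ± 2.15 FPKM in the MEF2 pair (log2 difference -0.72), and Xrn1 averaged 9.99 ± 0.421 FPKM in the HDAC pair and 16.7 ± 2.93 FPKM in the MEF2 pair (log2 difference -0.67). The cause of the grouping by position was not tested.

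**Figure D5:**
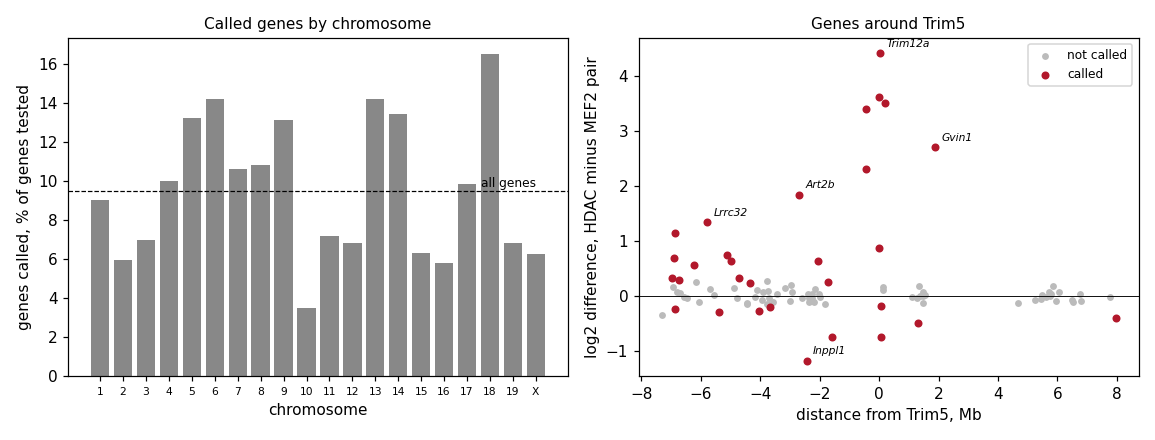
Left, share of genes called on each autosome and X, with immunoglobulin and T cell receptor segments left out and the dashed line at 9.47% for all such genes. Right, log2 difference of the HDAC pair minus the MEF2 pair for each gene within 8 Mb of Trim5 against its distance from Trim5 in Mb; called genes lie on both sides of 0.

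WT and Dyrk1 libraries were placed beside the pairs as a description. Of the 1103 called genes other than immunoglobulin and T cell receptor segments, WT lay nearer the mean of the HDAC pair for 744 (67.5%) and nearer that of the MEF2 pair for 359. The share was 405 of 503 for genes lower in the HDAC pair and 339 of 600 for genes higher in it. Among the 137 of these genes with an absolute log2 difference of 1 or more, WT lay nearer the HDAC pair for 122 (89.1%) and Dyrk1 for 108 (78.8%). At Art2b, WT averaged 58.0 FPKM and stood between the HDAC pair at 69.8 to 112 FPKM and the MEF2 pair at 18.3 to 30.6 FPKM.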

How the data were processed

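Gene levels came from 1 table of 18 libraries deposited by the authors. The table does not name its unit. The deposited values behave as FPKM, since low values multiplied by exon length fell within 0.03 of whole reads for 50.9 to 53.5% of cases at 1 depth per library, against 3.46 to 3.87% at other depths. FPKM and RPKM cannot be told apart this way. Per the submitters' processing notes, STAR and HTSeq were used with the mm10 build. Versions, strand setting and annotation release are not given in the sources used here. Intervals on depth would cover counting error only.

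Samples were grouped by their genotype labels. Symbols and positions came from GENCODE on GRCm38, with 34490 of 35275 identifiers matched. Values were analysed as log2(FPKM + 1) with limma 3.58.1 in R 4.3.3. The fit had 1 mean for each of the 4 labels over the 12 libraries, 8 residual degrees of freedom and a variance trend. The contrast was the mean of the HDAC1 and HDAC2 labels minus the mean of the Mef2c and Mef2d labels, two-sided, with Benjamini-Hochberg adjustment over 12037 genes. Count models were not run, since no counts are held. The fit was tested on simulated data.

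The members and gene lists were chosen with earlier results of these data known. The naming rule took the targeted genes and Rcor1, the 14 largest differences in each direction among called genes with no overlap of libraries and at least 5 FPKM in the higher pair (clones, pseudogenes and receptor segments left out), and up to 4 called members of each list, or up to 2 as values where none was called. Promoter windows came from RefSeq on GRCm38.p6, matched by symbol for 8775 of the 12037 genes. For called pseudogenes, the coding transcript of GENCODE that shared the most stretches of 25 bases was taken and aligned locally. Libraries with the same replicate number deviated together from their label means within a pair (6 of 6 correlations over 0.1, from 0.1381 to 0.4324) but not across pairs (2 of 12, from -0.458 to 0.1563), so the numbers pair libraries within a pair only, as a hint from the data and not the labels. Alternatives covered scaling, pseudocount, filters, model form, libraries left out and removal of length and GC trends. Results for a few genes are not reported here.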

Additional observations from a re-analysis of the deposited data

Results flagged for a closer look

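In groups of 6 libraries, the highest or lowest library was set against the others by Dixon's ratio of the gap to the range. Of 226 groups checked for the named genes, 18 passed, where chance gives about 11.3 (1 in 20).

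Replicate 3 of the Mef2d label stood above the other 5 MEF2 libraries at 6 genes. It was read at 6.57 FPKM for Trim12a, 3.28 FPKM for Trim5, 3.72 FPKM for Trim30d, 1.27 FPKM for Gvin1, 2.40 FPKM for Hbb-bt and 105 FPKM for Gm4956. The first 5 lie on chromosome 7 and Gm4956 on chromosome 1. The other MEF2 libraries reached at most 0.243 FPKM at Trim30d and 8.32 FPKM at Gm4956. The origin of these reads was not tested.

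Replicate 2 of the HDAC2 label stood apart from the other 5 HDAC libraries at 5 genes. It was highest for the NK cell genes Klrb1c at 18.6 FPKM, Klrc1 at 14.3 FPKM and Ncr1 at 14.8 FPKM, and for Atf5 at 4.74 FPKM. It was lowest for Ldhb at 23.1 FPKM. This library also had the highest Igha value of the HDAC pair, 8545 FPKM.

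Replicate 3 of the HDAC1 label was highest in the HDAC pair for Socs2 at 23.5 FPKM, Dnaja1 at 51.3 FPKM and Sostdc1 at 0.756 FPKM, and lowest for Malat1 at 155 FPKM, where the others were at 234 to 264 FPKM. Replicate 1 of the Mef2d label was lowest in the MEF2 pair for Hdac2 at 25.5 FPKM and highest for Tox2 at 9.08 FPKM. Replicate 3 of the Mef2c label was lowest for Arid1a at 64.2 FPKM, where the others were at 79.7 to 87.7 FPKM.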

How the results depend on the processing

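No called named gene changed sign, but with length and GC trends removed the balance turned, with 681 genes higher and 855 lower in the HDAC pair. Counts of called genes over all, higher and lower in the HDAC pair, were 740, 432 and 308 with a filter of 5 FPKM in 6 libraries, where 144 genes passed every label combination, 159 differed between HDAC1 and HDAC2 and 281 between Mef2c and Mef2d. They were 498, 305 and 193 with the label as a random block (estimated correlation 0.166), and the cause was not tested. With 1 mean per pair 345 genes were lower. The fit of all 18 libraries gave 183 genes between HDAC1 and HDAC2. Without the 3 libraries richest in B or plasma cell genes, 810 genes were called and 300 were lower. Leaving out 1 library at a time gave 1032 to 1271 called genes, 624 to 795 higher, 408 to 507 lower, 159 to 231 in every label combination, 60 to 467 between HDAC1 and HDAC2 and 289 to 430 between Mef2c and Mef2d. RLE scaling, a pseudocount of 0.1, no filter, no variance trend, the p alone, and receptor segments left out kept every such count within 1.5 times.

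A fit with the replicate block across all 4 labels called 1345 genes, 813 higher and 532 lower. With the replicate block within each pair as a random term (correlation 0.157), 1091 genes were called, 648 higher and 443 lower, and 592 differed between HDAC1 and HDAC2. It ended the calls on Cd200, Ier2, Hdac5, Hspb1, Insig1 and Ncr1.

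Of 94 named genes called, 73 were called in all 12 fits that left out 1 library, 52 with the label as a random block, 75 with 1 mean per pair and 71 without the 3 libraries. Genes under about 1 FPKM rest on few reads.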
